A study of Mus musculus with 19 samples.

Results

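The transcripts described here encode 10 neutrophil granule and cytosolic proteins, among them the serine proteases that alpha1 antitrypsin (AAT) is known to inhibit: Elane, Prtn3, Ctsg, Mpo, S100a8, S100a9, Ngp, Camp, Ltf and Lcn2. They were chosen by name as proteins of the neutrophil, and every probe set whose platform annotation gives one of these symbols, older names included, was taken. Each gene had 1 probe set, so that 10 of 45037 probe sets and 10 of 18193 genes are described. The samples are 19 Affymetrix mouse expression arrays of fat and pancreatic lymph nodes (PLNs) from female NOD (NOD/LtJx) mice, a strain that develops autoimmune diabetes spontaneously. The fat arrays come from mice treated with Power Mix (PM, 3 arrays) or AAT (2 arrays), from diabetic mice (DIA, 2 arrays) and from normal mice (NOR, 2 arrays). The PLN arrays come from AAT treated (4 arrays), diabetic (2 arrays) and normal mice (4 arrays), with no PM group. By the study's methods, NOR mice were normoglycemic, DIA mice had new onset diabetes, and both treatments were given to new onset diabetic mice. PM is a mixture of IL2.Ig, a mutant antagonist-type IL15.Ig and rapamycin. Age, dose and the time of sampling are not stated for the arrays, and the labels do not name the fat depot. The study's methods on insulin signaling name epididymal white adipose tissue as the fat that was dissected, also for RNA, which is a depot of males, whereas the labels give female mice. The treatment text in the labels concerns streptozotocin in mice cured by anti-TNF-α, and no array is labelled as such a mouse. Whether each array of a group came from a mouse of its own is not given either, and the p-values then rest on a spread between samples that may be technical.

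Neutrophils store their proteins in granules that are filled in sequence as the cells mature in bone marrow. The primary granules, filled at the promyelocyte stage, hold neutrophil elastase (Elane), proteinase 3 (Prtn3), cathepsin G (Ctsg) and myeloperoxidase (Mpo), and AAT in plasma is the main inhibitor of elastase. The secondary granules, filled later, hold lactoferrin (Ltf), the cathelicidin precursor (Camp), neutrophilic granule protein (Ngp) and lipocalin 2 (Lcn2), whereas S100a8 and S100a9 form calprotectin, an abundant protein of the cytosol. A circulating neutrophil has largely stopped making the primary granule mRNAs but still holds much S100a8 and S100a9 mRNA. The design asks whether neutrophil transcripts in fat and PLNs differed at the onset of diabetes, after AAT or after PM. Among the members, Elane, Prtn3 and Ctsg encode the serine proteases that AAT inhibits. In bulk tissue, fewer neutrophils and less RNA per neutrophil cannot be told apart.

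The bases just upstream of these genes are shown because several members lie side by side in the genome and their signals are set beside each other below. In RefSeq (GRCm38.p6), Prtn3 and Elane are neighbours on chromosome 10 with 0 protein-coding genes between them, and S100a8 and S100a9 are neighbours on chromosome 3, also with 0 between them. Camp, Ngp and Ltf all lie on chromosome 9, with 8 protein-coding genes between Camp and Ngp and 20 between Ngp and Ltf. All 10 members matched the table of promoter sequences. The first set gives 30 bases of the strand of each primary granule gene around the letters AGGAAGT, in capitals, which contain the GGAA core of sites bound by factors such as the myeloid PU.1. These letters, and those searched further on, were picked after the sequences had been read.
Elane, chr10:79886217-79886246 (+), capitals 84 to 78 bases upstream of the start: gtgtcccagggAGGAAGTagggctgtggcc
Prtn3, chr10:79879562-79879591 (+), capitals 94 to 88 bases upstream: aaactggaaggAGGAAGTgggacccacagc
Ctsg, chr14:56102762-56102791 (-), capitals 206 to 200 bases upstream: agaggaagaaaAGGAAGTagtcacctgttt
Mpo, chr11:87793550-87793579 (+), capitals 223 to 217 bases upstream: tggagagagagAGGAAGTtgcctttgtccc

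AGGAAGT, searched on both strands over the 250 bases upstream of the start, was found in 5 of 10 members, the 4 primary granule genes and, on the opposite strand, S100a8, and in 7.8% of 27025 promoters of the same length. The second set gives all 250 upstream bases of the 3 secondary granule genes on chromosome 9, which had the lowest changes of all members in AAT treated against normal PLNs, and of the calprotectin pair. Capitals mark TTNNGNAA (N is any base, both strands, overlaps allowed), the loose letters of sites bound by the C/EBP family, which includes the factors of granulocyte maturation.
Ngp, chr9:110419558-110419807 (+): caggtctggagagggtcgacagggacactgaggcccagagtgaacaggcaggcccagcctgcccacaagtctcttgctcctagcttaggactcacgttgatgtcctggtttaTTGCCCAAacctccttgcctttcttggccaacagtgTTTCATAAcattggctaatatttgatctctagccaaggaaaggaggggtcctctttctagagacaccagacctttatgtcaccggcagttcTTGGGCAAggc
Camp, chr9:109849457-109849706 (-): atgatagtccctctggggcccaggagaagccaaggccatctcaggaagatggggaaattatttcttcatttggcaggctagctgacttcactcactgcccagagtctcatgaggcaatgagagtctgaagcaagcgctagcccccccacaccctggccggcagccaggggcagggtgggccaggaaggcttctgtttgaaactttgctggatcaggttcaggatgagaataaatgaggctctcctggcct
Ltf, chr9:111019042-111019291 (+): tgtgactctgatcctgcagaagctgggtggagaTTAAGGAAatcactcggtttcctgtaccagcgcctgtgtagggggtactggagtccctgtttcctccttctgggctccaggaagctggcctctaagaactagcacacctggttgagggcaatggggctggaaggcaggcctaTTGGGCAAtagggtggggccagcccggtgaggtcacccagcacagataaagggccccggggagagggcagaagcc
S100a8, chr3:90668821-90669070 (+): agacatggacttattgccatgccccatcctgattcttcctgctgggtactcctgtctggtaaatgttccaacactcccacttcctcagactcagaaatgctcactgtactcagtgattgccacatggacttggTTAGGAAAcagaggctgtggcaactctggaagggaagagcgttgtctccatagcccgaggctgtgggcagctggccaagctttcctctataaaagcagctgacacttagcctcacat
S100a9, chr3:90695722-90695971 (-): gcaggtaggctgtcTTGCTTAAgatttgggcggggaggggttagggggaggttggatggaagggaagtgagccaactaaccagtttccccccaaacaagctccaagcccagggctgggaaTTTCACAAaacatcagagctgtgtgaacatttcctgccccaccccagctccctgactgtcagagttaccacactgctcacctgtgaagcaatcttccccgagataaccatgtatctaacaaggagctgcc

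TTNNGNAA occurred 3 times upstream of Ngp, 2 times upstream of Ltf and S100a9, once upstream of S100a8 and Lcn2, and 0 times upstream of Camp and of the 4 primary granule genes. It was found in 5 of 10 members and in 36.9% of all promoters. A match describes the letters in this window, not a site that is bound, and no match says only that the letters are not in these 250 bases.

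Each array gives 1 signal per probe set, scaled by the authors so that the trimmed mean of every array is 500. Changes are given as differences of mean log2 signals, relative to the median change of all probe sets in the same comparison, with the standard error (SE). The limma p-values, adjusted over all probe sets, test the change as measured, and a call means that the adjusted p was below 0.05. The median change of all probe sets was -0.58 for AAT against DIA PLNs and -0.72 for AAT against NOR PLNs, while in the other comparisons within a tissue it lay between -0.13 and 0.17. Arrays of a group correlated at 0.789 to 0.866 in fat and 0.705 to 0.890 in PLNs (Pearson, log2 signals of all probe sets). PLN AAT 3 and PLN DIA 1 stood apart with high signals of pancreatic acinar genes, 19540 and 3485 for chymotrypsinogen B1 (Ctrb1), against 60.88 to 517.1 on the other AAT and DIA arrays and 13.96 to 77.52 in NOR PLNs. The ratio of 3′ to 5′ actin signals, which is higher in degraded RNA, was 3.35 to 15.5 in fat, highest in DIA fat, and 0.881 to 2.31 in PLNs, while that of Gapdh was 0.79 to 4.63 in fat and 5.55 to 25 in PLNs, highest on AAT 2 and AAT 4.

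The label of the cells could be checked only in part. Of 7 defining neutrophil markers, 4 were measured: the G-CSF receptor Csf3r, the chemokine receptor Cxcr2 and the granule metalloproteases Mmp8 and Mmp9. Their mean log2 signal was 7.46 to 8.40 on PM, 6.63 to 7.65 on AAT, 6.39 to 7.25 on DIA and 6.08 to 7.42 on NOR fat arrays, and 5.43 to 7.35 on AAT, 5.43 to 6.83 on DIA and 6.34 to 6.83 on NOR PLN arrays. The list thus reached its highest level in PM fat, which overlapped with AAT fat but not with DIA or NOR fat, while the PLN groups overlapped. Y-linked genes, which female mice lack, showed how much signal a probe set can give without its transcript: the highest of 9 such probe sets reached 73.08 to 244.4 on the fat arrays and 32.88 to 249.6 on the PLN arrays. On single arrays, 1 to 7 of the 10 members exceeded that level, although each probe set has a background of its own. In fat, Ngp exceeded it on 9 of 9 arrays, Mpo on 8, Prtn3 and Ltf on 7, S100a8 on 5, S100a9 on 4, Elane and Lcn2 on 1, and Ctsg and Camp on 0. In PLNs, S100a9 did so on 9 of 10 arrays, Ltf on 7, S100a8, Ngp and Camp on 6, Elane on 5, Mpo on 3, Prtn3 and Ctsg on 2, and Lcn2 on 1. Low values of Ctsg, Camp and Elane in fat, of Prtn3, Ctsg and Mpo in PLNs and of Lcn2 in both tissues thus lie where signal and background are not separated.

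In PLNs at the onset of diabetes, all 10 members lay above the median change, but none was called. The primary granule genes Elane, Mpo and Prtn3 and the S100a8/S100a9 pair had the largest changes, and 1 array, DIA 1, was above every NOR array for 4 of these 5 genes. S100a8 had 1661 and 211.2 on DIA 1 and DIA 2, against 84.66, 49.74, 258.4 and 134.5 on NOR 1 to NOR 4. S100a9 had 1697 and 377.7 on the DIA arrays, against 563.8, 39.07, 695.1 and 364.1 on the NOR arrays. For both genes DIA 1 exceeded every NOR array, whereas DIA 2 lay inside the NOR range. Elane, the elastase gene, had 302.7 and 72.68 on the DIA arrays, against 134.4, 2.417, 62.62 and 76.97 on the NOR arrays. Prtn3 had 179.1 and 51.74 on the DIA arrays, against 153.9, 28.1, 7.017 and 20.58 on the NOR arrays. Again only DIA 1 lay above all NOR arrays, and the lowest signals, of NOR 2 for Elane and NOR 3 for Prtn3, are of the size of background. Mpo differed from this pattern, with 84.47 and 75.55 on the DIA arrays, against 97.06, 5.552, 79.84 and 3.594 on the NOR arrays. Of these NOR arrays 2 were at the level of the DIA arrays and 2 far below it. The highest Y-linked signal was 249.6 on DIA 1 and 127.8 on DIA 2. Mpo and Prtn3 on both DIA arrays, and Elane on DIA 2, were under it, so that the size of these changes is uncertain.

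Relative to all probe sets, the median change of the 10 members in DIA against NOR PLNs was 1.37 (range 0.11 to 2.54), with SE of 0.89 to 1.57. With limma, 0 members were called, against 0.0555% of all probe sets. At an unadjusted p under 0.05 there was 1 member, S100a8 (log2 change 2.54, SE 0.98, adjusted p = 0.407), against 9.97% of all probe sets. The arrays of the groups overlapped for all 10 members, whereas 8.99% of all probe sets lay wholly above and 14.1% wholly below. Without DIA 1, 6 members lay above and 4 below the median, their median was 0.42 (range -1.96 to 2.23), and S100a8 had a change of 1.25 (SE 1.21). Without DIA 2, all 10 lay above and the median was 2.19. Without NOR 2, 9 lay above and the median was 0.85. With low values floored at the 20th percentile of each array, 9 lay above and the median was 0.45 (range -0.55 to 2.59). DIA 1 was also the array with raised acinar signals, and other low or blood-borne signals moved with the members: the Y-linked list lay above the median change in 3 of 3 genes (median 1.19, mean log2 signal 4.998 to 7.09 on DIA and 4.57 to 5.66 on NOR arrays), and the erythroid list in 3 of 3 (median 1.76, 7.04 to 7.19 on DIA and 4.87 to 6.91 on NOR arrays). Their part in the result was not tested.

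By signal, the secondary granule gene Ngp was below the NOR range on all 4 AAT treated PLN arrays, Camp on 3 and Ltf on 2. The primary granule genes overlapped with both groups. Ngp, a cystatin-like granule protein, had 22.74, 6.908, 37.44 and 63.92 on AAT 1 to AAT 4, against 770.4 and 143 on the DIA arrays and 293.7, 104.9, 124.7 and 212.4 on the NOR arrays. All 4 AAT arrays were below every DIA and NOR array in signal. On each AAT array Ngp was also under the highest Y-linked signal of that array (157.5, 32.88, 161.9 and 65.59). On every DIA and NOR array it exceeded that level, so that the size of the difference is uncertain. By percentile within its array, Ngp on AAT 4 (39.8) lay inside the NOR range (34.3 to 53.9). AAT 1, AAT 2 and AAT 3 (13.4, 11.6 and 25.0) lay below that range. The median signal of all probe sets was 94.14 on AAT 4, against 178.9 to 264.6 on the NOR arrays. Ltf, the iron-binding protein lactoferrin, had 241.2, 2.776, 173 and 5.736 on the AAT arrays, against 513.5 and 93.6 on the DIA arrays and 389.2, 93.23, 188.8 and 224.7 on the NOR arrays. Camp, the precursor of the antimicrobial peptide CRAMP, had 32.3, 23.6, 369.6 and 10.69 on the AAT arrays, against 556.9 and 70.95 on the DIA arrays and 236.7, 214.5, 203.4 and 150.9 on the NOR arrays. Ltf was at background size on AAT 2 and AAT 4 and inside the NOR range on the other AAT arrays, while Camp was low on every AAT array but AAT 3, which exceeded all NOR arrays. Lcn2, the iron siderophore carrier, had 14.62, 43.66, 12.62 and 1.922 on the AAT arrays, against 49.25 and 4.076 on the DIA arrays and 22.58, 10.77, 3.863 and 15.92 on the NOR arrays, with no order between the groups.

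The change of Ngp relative to all probe sets was -3.16 (SE 1.09, adjusted p = 0.136) for AAT against DIA PLNs and -2.05 (SE 0.89, adjusted p = 0.0748) for AAT against NOR PLNs. Leaving out 1 array at a time, it was smallest in size without DIA 1 (-2.23) in the first comparison and without AAT 2 (-1.52) in the second. In both comparisons limma called 0 members, against 0.0999% of all probe sets for AAT against DIA and 3.74% for AAT against NOR. At an unadjusted p under 0.05 there was 1 member in AAT against DIA, Ngp, where 16.8% of all probe sets passed, and 3 members in AAT against NOR, Ngp, Camp (-1.53, SE 0.98, adjusted p = 0.163) and Ltf (-2.07, SE 1.22, adjusted p = 0.165), where 24.8% passed. Arrays that all lay below the other group occurred for Ngp alone among the members, against 14.2% of probe sets in AAT against DIA and 11.8% in AAT against NOR, and 0 members were wholly above, against 5.3% and 3.54%. The comparisons share the AAT arrays. The setting without PLN DIA 1 and AAT 3 together, under which 2 counts of called members moved, is left out of the following count. Relative to NOR PLNs, limma called 1 member in 3 other settings, each with more calls over all 45037 probe sets than the 1686 of the main fit. With low values floored at the 20th percentile it was Ngp (adjusted p = 0.0405, 6762 probe sets called). With the replicate number as a block it was again Ngp (adjusted p = 0.0325, 4806 called). Without AAT 1 it was Ltf (adjusted p = 0.043, 4736 called). AAT 2 and AAT 4, the arrays with the lowest Ltf signals, also had the highest 3′ to 5′ ratios of Gapdh, 20.6 and 25, against 7.43 and 8.3 on AAT 1 and AAT 3, 10 to 10.8 in DIA and 5.55 to 8.01 in NOR PLNs. For Ngp, AAT 2 had the lowest and AAT 4 the highest signal of the AAT arrays. Markers of other cells moved with AAT treatment too, relative to NOR PLNs: 4 of 4 adipocyte genes (median 1.78, mean log2 signal 8.30 to 10.41 on AAT and 6.92 to 8.68 on NOR arrays), 4 of 4 acinar genes (median 3.75, 4.79 to 14.3 and 4.41 to 7.16) and 6 of 7 macrophage and monocyte genes (median 1.15, 9.76 to 11.8 and 10.2 to 11.6) lay above the median change. The part of RNA quality and of these cells in the values was not tested.

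**Figure D1:**
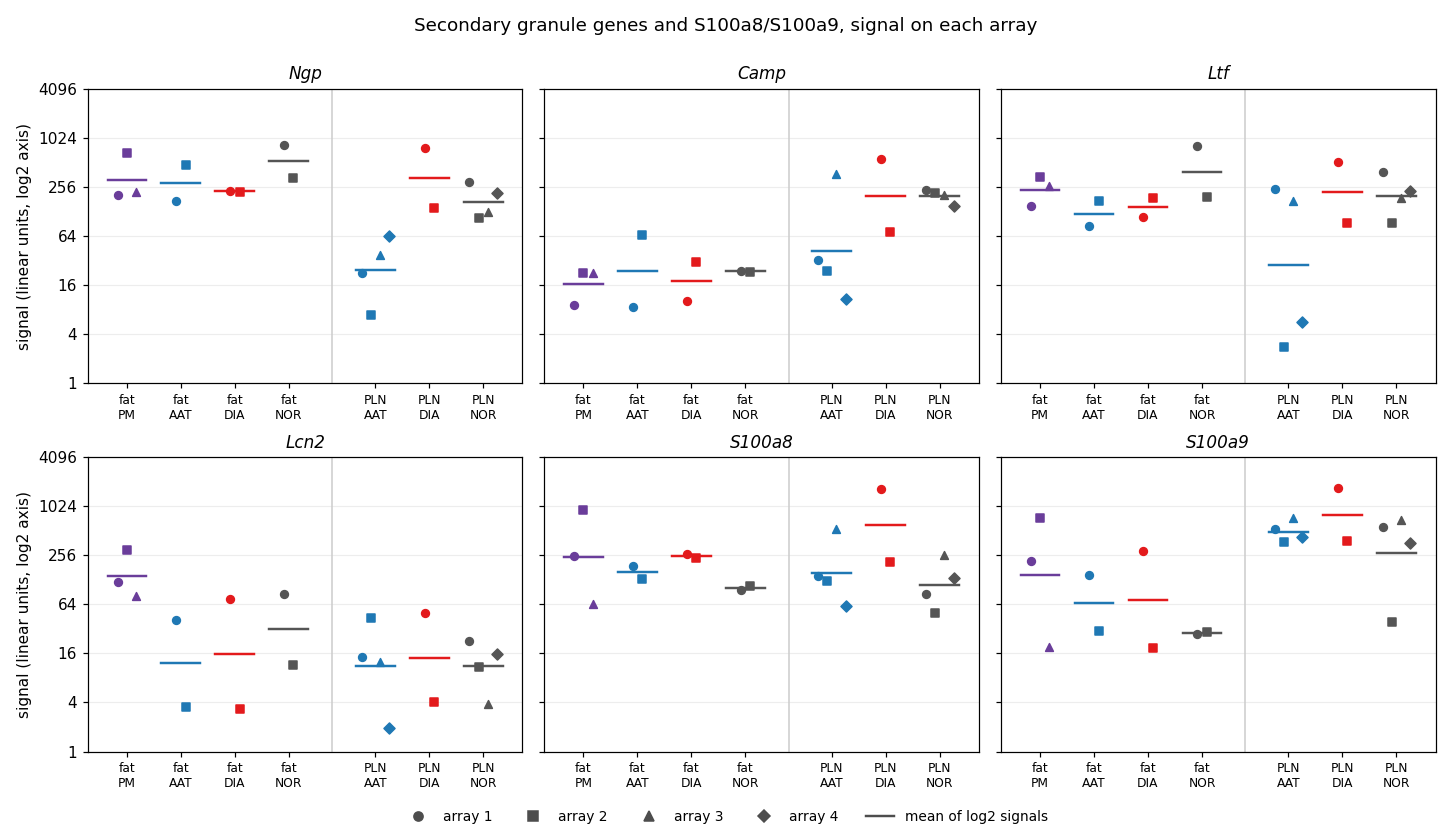
Signal of the 6 secondary granule and cytosolic genes on each array (points, shape by array number; log2 axis), with the mean of the log2 signals of each group as a line, for fat (left of the grey line) and PLNs (right). The 4 AAT points of Ngp in PLNs, 6.908 to 63.92, lie below all DIA and NOR points, whereas the S100a8 and S100a9 points of DIA PLNs overlap with NOR.

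The primary granule genes, those of the AAT targets among them, all lay above the median change in AAT treated against NOR PLNs and had no common direction against DIA PLNs, with no call in either. Ctsg, whose product is inhibited by AAT and by alpha1 antichymotrypsin, had 285.9, 66.85, 39.18 and 28.41 on the AAT arrays, against 161.6 and 4.026 on the DIA arrays and 20.81, 15.09, 34.16 and 13.02 on the NOR arrays. Elane had 19.86, 24.84, 198.8 and 64.36 on the AAT arrays, and Prtn3 had 21.34, 63.44, 151.2 and 52.75. Both genes lay within the span of the DIA and NOR arrays on every AAT array. Mpo, the peroxidase that makes hypochlorous acid, had 122.1, 45.86, 353 and 9.009 on the AAT arrays. For Ctsg, AAT 1 to AAT 3 were above all NOR arrays and AAT 4 was not, whereas the Mpo signals of AAT PLNs ran from background size to above every DIA and NOR array. Relative to all probe sets, the 4 primary granule genes had changes of 1.23 to 2.54 in AAT against NOR PLNs and -0.98 to 2.00 in AAT against DIA PLNs, and 0 of 4 passed an unadjusted p of 0.05 in either. The Y-linked list lay above the median change in 2 of 3 genes in AAT against NOR PLNs (median 0.99), and the part of background was not tested. S100a9 was the steadiest member there, with 529.1, 373.7, 728.9 and 421.5 on the AAT arrays, while S100a8 had 141.2, 122.3, 539.4 and 61.26. Both genes overlapped with DIA and NOR PLNs. For Elane, Prtn3, Mpo, S100a8, S100a9 and Camp the highest of the AAT arrays was AAT 3, the array with the highest acinar signals, whose part in these values was not tested. Over the 10 members, 7 lay above and 3 below the median change in AAT against NOR PLNs (median 1.22), and 3 above and 7 below in AAT against DIA PLNs (median -0.57). As measured, without the median subtracted, these counts were 7 and 3, and 1 and 9, with Mpo and Lcn2 changing sign in AAT against DIA. The count against DIA depended on single arrays, with 5 above and 5 below without DIA 1 (median -0.03) and 1 above and 9 below without DIA 2 (median -1.41), and with the replicate number as a block the median was -1.32. Against NOR the median was 0.55 with low values floored at the 20th percentile and 0.74 without NOR 2, with 6 above in both.

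**Figure D2:**
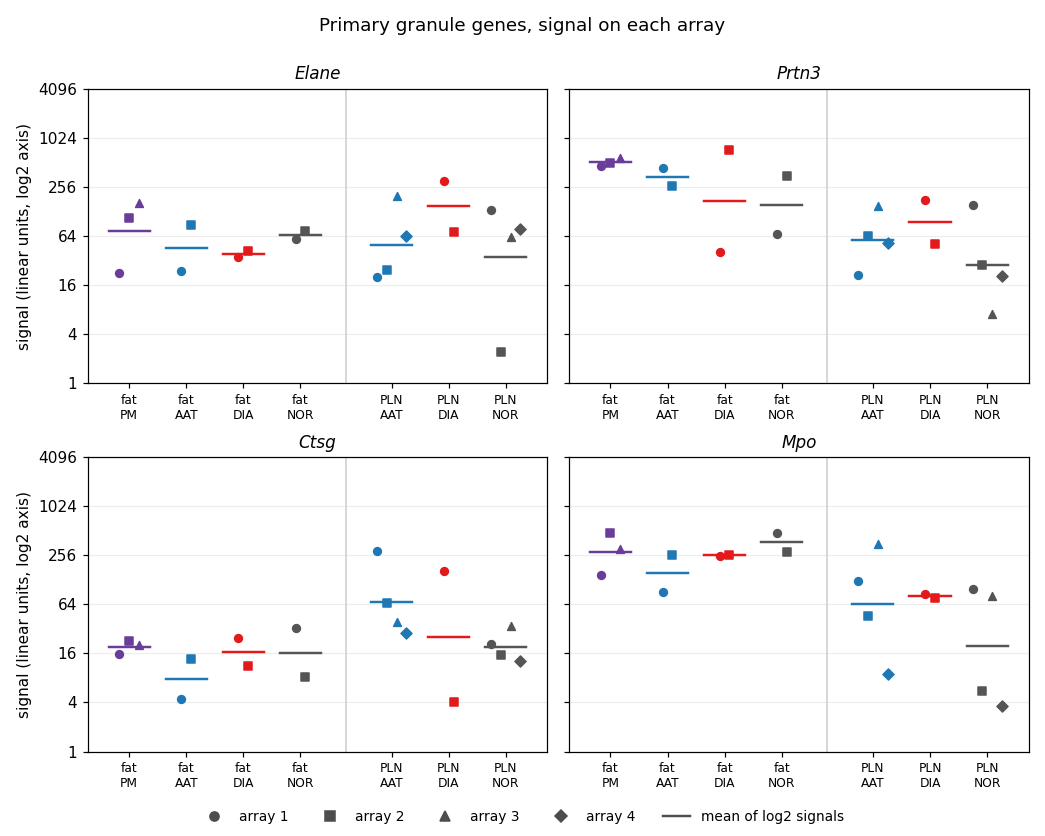
Signal of the 4 primary granule genes on each array (points, shape by array number; log2 axis), with the mean of the log2 signals of each group as a line, for fat (left of the grey line) and PLNs (right). In fat Prtn3 is between 464.9 and 570.7 on all PM arrays, and in NOR PLNs Mpo falls into 2 higher and 2 lower arrays.

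In fat at the onset of diabetes, S100a8 was higher and Ngp, Ltf, Mpo and Elane were lower on both DIA arrays than on both NOR arrays, but no member was called. S100a8 had 266.6 and 232.7 on the DIA arrays, against 95.34 and 107.3 on the NOR arrays. Its partner S100a9 did not follow it on both arrays, with 287 and 18.42 on the DIA arrays, against 27.69 and 29.29 on the NOR arrays. Only DIA 1 was high for S100a9. Ngp had 226.9 and 222.7 on the DIA arrays, against 829.7 and 332.1 on the NOR arrays. Ltf had 109.6 and 188 on the DIA arrays, against 810.1 and 191.5 on the NOR arrays. Both secondary granule genes were highest on NOR 1, and the gap of Ltf between DIA 2 and NOR 2 was small. Mpo had 252.4 and 253.1 on the DIA arrays, against 478.6 and 279.6 on the NOR arrays, and Elane had 35.71 and 42.43, against 59.64 and 73.8.

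Relative to all probe sets, S100a8 had a change of 1.41 on the log2 scale (SE 1.00, adjusted p = 0.728), Ngp one of -1.12 (SE 0.72, adjusted p = 0.647) and Ltf one of -1.35 (SE 0.79, adjusted p = 0.619), none past the test. Limma called 0 members and 0% of all probe sets, and at an unadjusted p under 0.05 there were 0 members, against 8.96% of all probe sets. Arrays that did not overlap occurred for 1 member above and 4 below, against 18% of probe sets above and 23.2% below. Without NOR 1, Ngp had a change of -0.58 and Ltf one of -0.43. Without NOR 2, Ngp had a change of -1.58 and Ltf one of -2.19. The actin 3′ to 5′ ratio moved with this comparison, 15.2 and 15.5 in DIA fat and 3.63 and 4.3 in NOR fat, and so did the erythroid list, 7.38 to 8.01 on DIA and 9.59 to 9.73 on NOR arrays (mean log2 signal, 3 of 3 genes below the median change), and the macrophage and monocyte list, 10.1 to 11.4 and 9.40 to 9.53 (7 of 7 above). Their part was not tested.

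In AAT treated fat no member was called against DIA fat, and S100a8 was lower on both arrays. The 10 members ranged from -1.06 to 1.03 relative to all probe sets (median -0.15), limma called 0 members and 0% of all probe sets, and at an unadjusted p under 0.05 there were 0 members, against 4.74% of all probe sets. S100a8 was the only member with arrays that did not overlap, 188.3 and 130.4 on the AAT arrays, against 266.6 and 232.7 on the DIA arrays, with 17.7% of all probe sets wholly below and 14.9% wholly above. Its signals in AAT fat thus lay between those of DIA and NOR fat. The actin 3′ to 5′ ratio moved with it, 9.08 and 5.87 in AAT fat and 15.2 and 15.5 in DIA fat, and its part was not tested. Prtn3 had 437.7 and 263.4 on the AAT arrays, against 41.07 and 716.2 on the DIA arrays and 68.61 and 343.5 on the NOR arrays. Ctsg had 4.416 and 13.59 on the AAT arrays, against 24.97 and 11.2 on the DIA arrays and 32.67 and 8.14 on the NOR arrays. For both proteases the AAT arrays overlapped with the DIA and the NOR arrays. Relative to NOR fat, which serves DIA fat as its control too, Mpo had 90.74 and 257.9 on the AAT arrays (change -1.13, SE 0.71, adjusted p = 0.937), and Ltf had 85.09 and 169.9 (change -1.58, SE 0.79, adjusted p = 0.937). S100a9 had 144.9 and 29.79 on the AAT arrays (change 1.34, SE 1.70, adjusted p = 0.954), where AAT 2 exceeded the higher NOR array by less than 1 unit. Each of these changes depended on 1 array: Mpo had -0.55 without AAT 1, Ltf -0.64 without NOR 1 and S100a9 0.02 without AAT 1. In that comparison limma again called 0 members and 0% of probe sets, with 0 members and 5.07% of probe sets at an unadjusted p under 0.05, and 2 members above and 2 below did not overlap, against 12.9% and 18% of probe sets.

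In PM treated fat, Prtn3 was at the high end on all 3 arrays, while S100a8 and S100a9 spread over the whole range of the tissue. Lcn2 was above the AAT and DIA arrays in signal, on 2 of 3 PM arrays at background size. Lcn2 had 118, 296.4 and 79.66 on PM 1 to PM 3, against 41.45 and 3.535 on the AAT arrays, 73.35 and 3.336 on the DIA arrays and 86.03 and 11.64 on the NOR arrays. All PM arrays were above all AAT and DIA arrays in signal, and PM 3 was below NOR 1. By percentile within its array, PM 3 (21.6) was also below DIA 1 (23.5). For Lcn2, PM 1 and PM 3 did not reach their highest Y-linked signals of 172.6 and 144.9, whereas PM 2 exceeded its own of 208.9. Prtn3 had 464.9, 508 and 570.7 on the PM arrays, which lay closer together than in any other fat group, above both NOR arrays and below DIA 2. S100a8 had 250.6, 912.2 and 63.53 on the PM arrays, and S100a9 had 217.6, 734.9 and 19.32. PM 2 held the highest and PM 3 the lowest S100a8 signal of all fat arrays. Ctsg had 15.52, 22.48 and 19.97 on the PM arrays, all above the AAT arrays and of background size.

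Relative to all probe sets, Lcn2 had a change of 3.02 (SE 1.55, adjusted p = 0.543) for PM against DIA fat and one of 3.37 (SE 1.55, adjusted p = 0.89) for PM against AAT fat. Without DIA 2 the first of these was 0.88, without AAT 2 the second was 1.47, and both arrays had Lcn2 signals under 4. Prtn3 had a change of 1.72 (SE 1.01, adjusted p of 1) for PM against NOR fat, and one of 0.47 without NOR 1. Ctsg had a change of 1.13 (SE 1.02, adjusted p = 0.906) for PM against AAT fat. Limma called 0 members and 0% of probe sets against DIA, AAT and NOR fat. At an unadjusted p under 0.05 there were 0 members against DIA (9.69% of probe sets), 1 against AAT, Lcn2 (5.55%), and 0 against NOR (3.41%). Members with arrays wholly above numbered 1 against DIA (18.3% of probe sets), 3 against AAT (12.7%) and 1 against NOR (8.68%), and Camp against NOR was the only one wholly below (6.56%), with 0 members wholly below DIA (11.7%) or AAT (7.74%). Of the 3 against AAT, Prtn3 overlapped by percentile within the array (70.1 on PM 2 and 70.7 on AAT 1), and Ctsg was of background size. Against DIA fat 7 members lay above the median change (median 0.45), and without PM 2, the array with the highest Lcn2, S100a8 and S100a9, 5 did (median -0.07). Several other signals moved with PM against DIA fat. The neutrophil marker list was highest in PM fat, the actin 3′ to 5′ ratio was 3.35 to 6.32 on PM and 15.2 and 15.5 on DIA arrays, the erythroid list was 8.85 to 9.59 on PM and 7.38 to 8.01 on DIA arrays (mean log2 signal, 3 of 3 genes above the median change), and 7 of 7 macrophage and monocyte genes lay below it. Their part in the level of Lcn2 was not tested. Of a wider list of 17 neutrophil surface and enzyme genes, 8 lay above and 9 below the median change in PM against DIA fat (median -0.03). The mean log2 signal of that list was 6.87 to 7.62 on PM and 6.70 to 6.99 on DIA fat arrays, with overlap. Lcn2 is also made by epithelial cells and adipocytes, and the epithelial list was 7.58 to 9.41 on PM and 7.91 to 8.78 on DIA fat arrays (mean log2 signal), without separation.

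**Figure D3:**
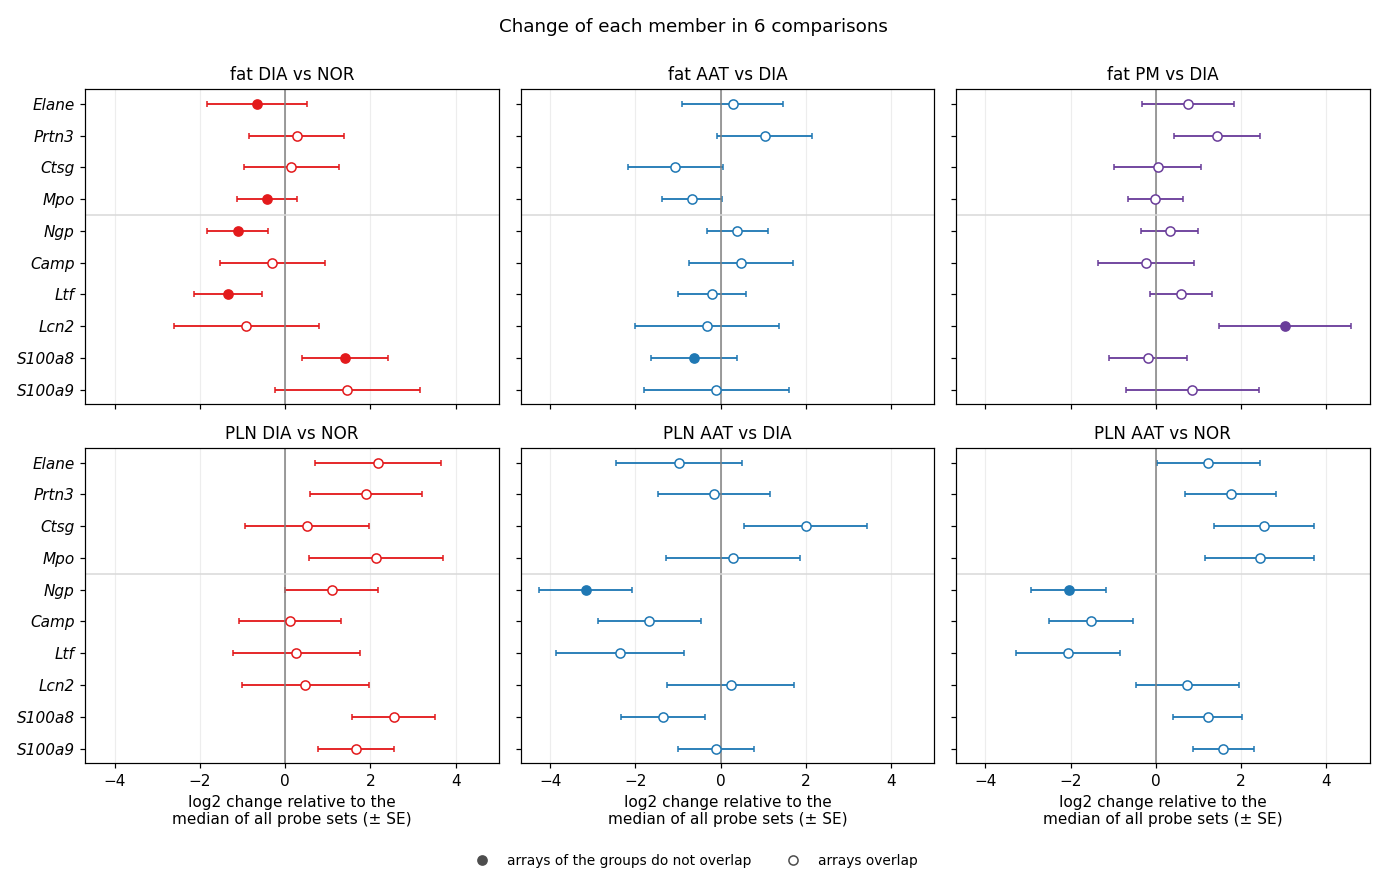
Log2 change of each member relative to the median of all probe sets (points) with its SE (bars) in 6 comparisons; filled points mark members whose arrays do not overlap between the groups, and the grey line divides the primary granule genes from the rest. Ngp in AAT against DIA PLNs (-3.16) and AAT against NOR PLNs (-2.05) is the only member with filled points in the lower row.

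The tissues themselves differed most for Mpo, S100a9 and Camp. In normal mice Mpo had 478.6 and 279.6 in fat, against 97.06, 5.552, 79.84 and 3.594 in PLNs, without overlap. S100a9 had 27.69 and 29.29 in NOR fat, against 563.8, 39.07, 695.1 and 364.1 in NOR PLNs, and Camp had 23.78 and 23.46 in NOR fat, against 236.7, 214.5, 203.4 and 150.9 in NOR PLNs. Mpo was thus the primary granule gene with more signal in fat, and S100a9 and Camp the members with more signal in PLNs, in all NOR arrays. Relative to all probe sets, Mpo was higher in NOR fat than in NOR PLNs by 4.16 (SE 1.31, adjusted p = 0.0231), the single call among the members in all comparisons, where 22.2% of all probe sets were called. S100a9 had a change of -3.30 (SE 1.25, adjusted p = 0.0641), Camp one of -3.11 (SE 1.25, adjusted p = 0.0812) and Ngp one of 1.59 (SE 0.90, adjusted p = 0.201), without a call. At an unadjusted p under 0.05 there were 4 members, Prtn3 (2.41, SE 1.17, adjusted p = 0.138) besides Mpo, S100a9 and Camp, against 34.7% of probe sets. Of the members, 2 were wholly above and 2 wholly below, against 25.8% and 25.1% of probe sets. The size of these changes is uncertain, since Mpo exceeded the highest Y-linked signal on NOR 3 alone among the NOR PLN arrays, and S100a9 and Camp on neither NOR fat array. With low values floored at the 20th percentile the change of Mpo was 2.30 and no longer called (adjusted p = 0.0596), that of S100a9 was -2.32 and that of Camp -1.76. The call of Mpo was also lost without fat NOR 1 (adjusted p = 0.17), without fat NOR 2 (0.0918), without PLN NOR 2 (0.0613) and without PLN NOR 4 (0.0685). The labels name a standard Affymetrix preparation and an amplification system and do not say which arrays had which, and the 3′ to 5′ ratios differed between the tissues in opposite directions for actin and Gapdh, so that tissue and preparation cannot be told apart.

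The fitted effect of diabetes in fat minus that in PLNs was below the median of all probe sets for all 10 members (-2.93 to -0.29), but for 5 of 10 without PLN DIA 1 (median -0.33), and limma called 0 of these differences, against 0.00444% of probe sets, and 0 members then or with all arrays had an unadjusted p under 0.05, against 8.87% of probe sets. The effect of AAT against DIA differed between the tissues most for Ngp, by 3.61 in fat minus PLNs (SE 1.37, limma adjusted p = 0.466). In fat Ngp had 170.7 and 477.3 on the AAT arrays, against 226.9 and 222.7 on the DIA arrays, which gives no separation. In PLNs all AAT arrays were below, as described. For AAT limma called 0 members and 0% of probe sets, with Ngp the only member among the 8.14% of probe sets at an unadjusted p under 0.05.

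Members of the same protein complex or gene cluster were compared array by array. S100a8 and S100a9, whose products pair, had a Pearson correlation of 0.83 (Spearman 0.75) over 9 fat arrays and 0.74 (Spearman 0.73) over 10 PLN arrays on the log2 scale, given as a description with no test because arrays of all groups are pooled. Leaving out the arrays with the most extreme S100a8, it was 0.65 over 7 fat arrays and 0.63 over 8 PLN arrays. Fat DIA 2 departed from the relation, with 232.7 for S100a8 and 18.42 for S100a9. Elane and Prtn3, neighbours on chromosome 10, had a correlation of only 0.16 in fat and 0.50 in PLNs. Ngp and Ltf reached 0.81 in fat and 0.68 in PLNs, but 0.39 and 0.21 without the 2 arrays of each tissue with the most extreme Ngp, so their likeness rests on those arrays, NOR 1 and PM 2 in fat and AAT 2 and DIA 1 in PLNs. Over all 45 pairs of members the median correlation was 0.15 in fat and 0.34 in PLNs. The 10 transcripts did not vary as 1 block in either tissue.

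**Figure D4:**
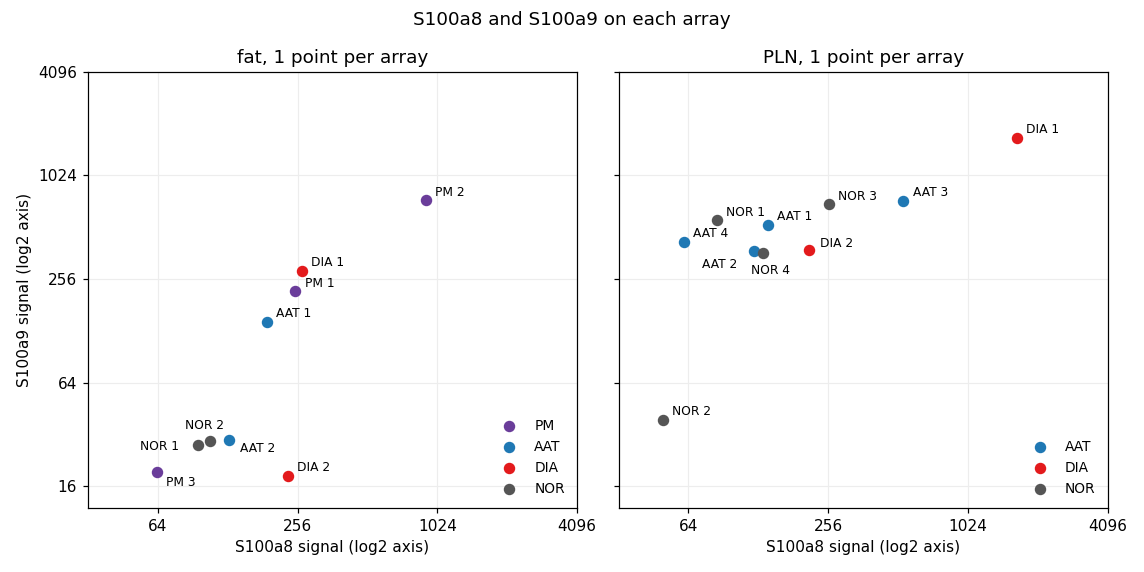
S100a9 signal (vertical, log2 axis) against S100a8 signal (horizontal, log2 axis), 1 point per array, for fat (left) and PLNs (right), coloured by group. PLN DIA 1 (1661 and 1697) and fat PM 2 (912.2 and 734.9) lie at the upper end of their tissues, and fat DIA 2 has a low S100a9 of 18.42 beside an S100a8 of 232.7.

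Among 10944 genes with a mean signal at or above the median, those most like the mean of S100a8 and S100a9 over the fat arrays were Hnrnpdl (Pearson 0.91), Ttf1, Gyg, Zpr1 and Ccdc127 (0.86). Over the PLN arrays they were Tmem168 (0.94), 4632415L05Rik, Scfd1, Car4 and Kank4 (0.88). The genes most like the mean of the 4 primary granule genes were Hspa4l (0.96), Scn2b, Ust, Rel and Pus10 (0.93) in fat, and P2ry12 (0.89), Car4, Sde2, Orai1 and Slc23a2 (0.84) in PLNs. No member of the neutrophil lists was among them. With 9 or 10 arrays and so many candidates, such correlations are a ranking only.

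Other genes of neutrophil function were read from lists chosen by role, with the brightest probe set standing for each gene. In fat, of 17 measured neutrophil surface and enzyme genes 10 lay above and 7 below the median in DIA against NOR (median 0.28) and limma called 0, with 1 at an unadjusted p under 0.05, Csf3r, the receptor for the granulocyte growth factor (change 2.14, SE 0.67, adjusted p = 0.446). Csf3r had 447.6 and 255 on the DIA arrays, against 124.4 and 54.68 on the NOR arrays, without overlap. In DIA against NOR PLNs, where all 10 members lay above the median, 8 genes of this list lay above and 9 below it (median -0.34), with 0 called and 2, both lower, at an unadjusted p under 0.05, against 9.97% of all probe sets. In AAT against DIA fat the chitinase-like Chil3 had 3.387 and 5.39 on the AAT arrays, against 135.3 and 71.59 on the DIA arrays (change -4.48, SE 1.15, adjusted p = 0.928), at signals of background size. The 8 neutrophil chemoattractants included 7 below the median in DIA against NOR fat (median -0.77) and 8 above it in PM against DIA fat (median 0.95), where Cxcl1, a ligand of Cxcr2, had a change of 0.95 (SE 0.36, adjusted p = 0.414), and limma called 0 of 8 in both. At an unadjusted p under 0.05 there was 1 gene in DIA against NOR, Ppbp, against 8.96% of all probe sets, and there were 2 in PM against DIA, Ppbp and Cxcl1, against 9.69%. Ppbp, a chemokine stored in platelets, had 660.3, 1766 and 861.1 on the PM arrays, against 173.5 and 30.97 on the DIA arrays (change 3.62, SE 0.65, adjusted p = 0.254), and the DIA arrays were also below the NOR arrays, with 2237 and 1362 (change of DIA against NOR -4.47, SE 0.71, adjusted p = 0.297). The platelet list, which holds Ppbp, moved with it, 8.75 to 10.2 on PM, 8.14 to 8.19 on DIA and 9.57 to 10.3 on NOR arrays (mean log2 signal), with 4 of 4 genes below the median in DIA against NOR and 3 of 4 above it in PM against DIA, and its part was not tested. NADPH oxidase subunits, which make the superoxide that myeloperoxidase uses downstream, lay above the median in 5 of 5 cases in DIA against NOR fat (median 0.98), with 0 called and 1 at an unadjusted p under 0.05, Cyba (2.97, SE 1.06, adjusted p = 0.478), against 8.96% of all probe sets. The change of Cyba was 0.63 without NOR 1 and 5.40 without NOR 2. Macrophages also make these subunits, and 7 of 7 macrophage and monocyte genes lay above the median in this comparison.

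The inhibitors of these proteases were read in the same way, with 10 of 14 measured. The genes of mouse AAT form a family of near copies, and the Serpina1b probe set is of a kind that can bind several of them, so that its signal is uncertain between them. Serpina1b had 850.6, 134.6 and 174.4 on the PM, 1328 and 456.3 on the AAT, 627.9 and 1214 on the DIA and 45.65 and 270.6 on the NOR fat arrays (DIA against NOR 3.08, SE 0.98, adjusted p = 0.446), and 4396 to 12220 on the PLN arrays. In fat its DIA and AAT arrays were above both NOR arrays, and every PLN array exceeded every fat array. Slpi, the secretory inhibitor of elastase and cathepsin G, had 1641 and 2020 on the AAT fat arrays, against 738.1 and 726.4 on the DIA fat arrays (change 1.36, SE 0.33, adjusted p = 0.928). In PLNs Slpi had 760.4 and 2087 on the DIA arrays, against 453.2, 378.7, 221.7 and 188.4 on the NOR arrays (change 2.23, SE 0.79, adjusted p = 0.363). Limma called 0 of the 10 inhibitors in these 3 comparisons, with 2, 2 and 2 at an unadjusted p under 0.05, against 8.96%, 4.74% and 9.97% of all probe sets. Serpina1b in fat had a change of 1.67 without NOR 1, and Slpi in PLNs one of 1.17 without DIA 2.

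Within a tissue, calls in the lists chosen by role were made in AAT against NOR PLNs and in no other comparison. There 3.74% of all probe sets were called. Of 17 neutrophil surface and enzyme genes 0 were called. The calls were 1 of 5 oxidase subunits, 1 higher and 1 lower of 10 protease inhibitors, and 2 of 10 other S100 genes. Adipocyte, acinar and macrophage markers also lay above the median change there, as given above, and their part was not tested. Relative to all probe sets, Ncf1, a cytosolic subunit of the NADPH oxidase, rose by 2.75 (SE 0.49, adjusted p = 0.032), the serpin Serpinb6b rose by 2.54 (SE 0.37, adjusted p = 0.0177), S100a10 rose by 2.32 (SE 0.40, adjusted p = 0.0362), S100a16 rose by 2.83 (SE 0.56, adjusted p = 0.0425) and Serpina3n, a relative of alpha1 antichymotrypsin, fell by 0.97 (SE 0.46, adjusted p = 0.044). Each of the 5 was above an adjusted p of 0.05 after quantile normalization (0.0617 to 0.198), with eBayes without trend (0.0927 to 0.132) and without NOR 1 (0.0858 to 0.137), NOR 4 (0.0564 to 0.155) or AAT 4 (0.0502 to 0.111), and 4 of them, Serpinb6b excepted, without NOR 2, NOR 3 or AAT 3. Serpina3n was also above it after centring each array on its median (0.439), and the arrays of S100a16 overlapped between the groups. The mean over all probe sets of Ncf1 had a change of 1.32 (adjusted p = 0.46) and that of S100a10 one of 0.40 (adjusted p = 0.641), so that the probe sets of these genes disagree.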

How the data were processed

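RNA of NOD mouse fat and PLNs had been hybridised to 19 Affymetrix mouse expression arrays. The authors deposited 1 intensity per probe set and array, on a linear scale, named as MAS5 signals in the submitters' processing notes (version not given in the sources used here). Every array has a 2% trimmed mean of 500, and the number of arrays limits the precision. The RMA and rank product of the study's methods were not run, since they need scanner files, which were not used here. Intensities were floored at 1 and taken to log2, and the 64 control probe sets were left out. Of the 45037 others, 34945 named 1 gene, 932 several and 9160 none. Groups came from the labels. The limma linear model with eBayes (trend) was fitted within each tissue over all groups, and over all 19 arrays between tissues, with Benjamini-Hochberg adjustment over all probe sets (R 4.3.3, limma 3.58.1, jsonlite 2.0.0, Python 3.11.15, matplotlib 3.10.9). The code was tested on simulated data.

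Members and lists were chosen with earlier results of these data known. All members are named, a change is printed where it was called or where arrays did not overlap and it exceeded 1 in size, and other lists give up to 2 genes by p and by level. Changes of S100a8, S100a9, Camp, Ltf, Prtn3 and Lcn2 given beyond that rule were chosen after their values were seen. The alternatives were the fit to the compared groups, the replicate block, quantile normalization, arrays centred on their median, a pseudocount of 32, low values floored at the 20th percentile, a filter at the 40th percentile, eBayes without trend, all probe sets of a gene, and leaving out each array. The setting without PLN DIA 1 and AAT 3 and the motif letters were chosen after the data had been seen. Promoter sequences are from RefSeq (GRCm38.p6).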

Additional observations from a re-analysis of the deposited data

How the results depend on the processing

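The gene changes followed through the alternatives were of members with a call, or with arrays apart and a change over 1 in size. Genes of the other lists were added where the unadjusted limma p was under 0.05. A kept direction was thus largely set by how the changes were picked. Of 60 such changes, 59 kept their direction. The exception was Mcemp1, a granulocyte membrane gene, in DIA against NOR PLNs, at -1.73 with all arrays, 0.38 without PLN DIA 1 (alone or together with AAT 3) and -3.98 without PLN DIA 2, the range over left-out arrays. Of 12 counts of members called, 10 stayed at 0 under every alternative planned beforehand. In the setting without PLN DIA 1 and AAT 3 together, chosen after the data had been seen, 2 counts moved. For AAT against NOR PLNs the count of 0 became 1 with the replicate block, with the floor at the 20th percentile and without PLN AAT 1. In each of these settings more of all probe sets were called too, as given above. For NOR fat against NOR PLNs the count was 1, with 9995 of 45037 probe sets called. It became 3 in the fit to the compared groups (14329 probe sets called) and with log2 of the value plus 32 (12728). It became 2 after quantile normalization (13493) and after median centring (9176). With the floor (9953 called) and with the filter at the 40th percentile the count was 0. That filter left 4 members tested and removed Mpo, whose mean signal was at percentile 35.0. Leaving out single arrays also changed the count, as given above for Mpo. The cause was not tested.

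The labels do not say whether the replicate numbers pair samples, and the replicate block is given as an alternative only. Deviations of same-numbered arrays correlated at -0.26 to 0.29 in fat (2 of 12 pairs over 0.1) and -0.04 to 0.28 in PLNs (6 of 8). The PLN pairs of arrays numbered 1 or 2 lay at 0.17 to 0.28, those numbered 3 and 4 at -0.04 and 0.01. With the replicate block the count for AAT against NOR PLNs was 1 (Ngp, adjusted p = 0.0325 by limma), that for NOR fat against NOR PLNs was 1, and the others were 0; over all probe sets, AAT against NOR PLNs had 4806 calls with the replicate block, 6762 with the floor, 331 with eBayes without trend and 1686 without these changes. No detection call was used here, so a low signal cannot be told apart from background, and the groups of 2 to 4 arrays limit the precision of every change given.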
